A study of Rattus norvegicus with 8 samples.

Results

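The genes studied here encode the subunits of the mitochondrial respiratory chain and of ATP synthase, measured in the lung of rats held in hypobaric hypoxia. They were found by name on the array: every probe whose gene name, with endings for predicted or mapped genes removed, begins with Nduf, Sdh (a to d), Uqcr, Cox4 to Cox8 or Atp5, or is Cycs or Cyc1, with Cox8b left out. This gave 82 of 41012 probes and 72 of 35535 genes. Of these genes 31 belong to complex I, 4 to complex II, 6 to complex III, 12 to complex IV and 13 to ATP synthase, and 1 is cytochrome c. The other 5 carry a matching name but are no subunits.

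Before exposure, rats were given either normal saline or cobalt (12.5 mg per kg) over 7 days. Hypobaric hypoxia then corresponded to 30000 ft and lasted 6, 12, 24 or 48 h. Each of the 8 two-colour arrays set the lung RNA of 1 pretreatment and duration against RNA of the same pretreatment at 0 h, so that each group held 1 array and the 4 arrays of a pretreatment shared their control. The labels give neither the strain, the age nor the number of animals behind an RNA. Hypoxia RNA was labelled with Cy5 on the 4 saline arrays and with Cy3 on the 4 cobalt arrays, so pretreatment and dye orientation cannot be told apart, and the same holds for the slide and the scan. All values are log2 ratios of hypoxia over 0 h, given with the standard error (SE) of the limma estimate, and a difference was called when limma's Benjamini-Hochberg adjusted p over all 24141 genes tested was under 0.05. As nothing states that the arrays came from separate animals, these p-values measure the spread between arrays and durations only. An error in the shared control would shift the 4 ratios of a pretreatment alike. The p-values of comparisons with 0 h and between pretreatments do not include such an error.

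The respiratory chain passes electrons from NADH through complex I, or from succinate through complex II, to ubiquinone, and from there through complex III and cytochrome c to complex IV, which reduces oxygen to water. Complexes I, III and IV pump protons across the inner mitochondrial membrane, and ATP synthase uses their return to make ATP. All members counted here are encoded in the nucleus, whose respiratory genes are known to be regulated by the nuclear respiratory factors, while low oxygen is known to exchange some subunits of complex IV for isoforms through hypoxia-inducible factors. In a whole lung, fewer cells of a type and less RNA per cell cannot be told apart.

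Of the 72 genes, 70 were tested, and each of these was well above background on all 8 arrays. The names Cox6b (now Cox6b1) and Cox6c1 (a pseudogene of Cox6c) were above background on 3 arrays and were not tested. The 5 names that are no subunits are Ndufaf1, an assembly factor of complex I, Cox7a2l, a factor in joining complexes III and IV, Cox4nb, which RefSeq lists as Emc8 of the endoplasmic reticulum membrane complex, Atp5s, which RefSeq lists as Dmac2l, and Cox6c1. RefSeq also uses newer names for most ATP synthase genes, such as Atp5f1a for Atp5a1 and Atp5mc3 for Atp5g3; the names on the array are kept here. The lung markers Sftpc, Sftpb, Sftpa1, Scgb1a1, Ager, Aqp5 and Pecam1 were well above background on all 8 arrays. After all ratios were turned to hypoxia over 0 h, the arrays of saline correlated at 0.56 to 0.70 with each other over all probes, those of cobalt at 0.39 to 0.73, and arrays of different pretreatments at -0.10 to 0.26.

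The results turn on the probes of 6 members. The electron carrier Cycs and the complex IV subunit Cox5b had among the highest ratios. Uqcrfs1 and Ndufb11 differed most between pretreatments. Ndufs1 was below 0 at 6 and 12 h and above 0 at 48 h in both pretreatments. Its difference between late and early durations was not called. Ndufc2 had 2 probes that disagreed. The probes of these members are shown, for Ndufc2 the one that did not follow its partner. Each has 60 bases and is given from 5′ to 3′ as in the scanner files, and positions are those of the array design in build rn3; where a span exceeds 60 bases, the design gives the probe over more than 1 block. No gene model of that build was used here, so exons are not stated.
Cycs, chr4:79102851-79102910: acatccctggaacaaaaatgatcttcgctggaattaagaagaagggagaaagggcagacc
Cox5b, chr9:35627602-35627823: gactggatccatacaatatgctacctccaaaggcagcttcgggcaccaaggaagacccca
Uqcrfs1, chr17:40436501-40436560: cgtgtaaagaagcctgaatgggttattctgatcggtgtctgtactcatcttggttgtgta
Ndufb11, chrX:12995936-12997237: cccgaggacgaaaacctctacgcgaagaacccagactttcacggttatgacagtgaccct
Ndufs1, chr9:61958828-61958887: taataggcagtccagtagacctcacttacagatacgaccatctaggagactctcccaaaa
Ndufc2, chr1:154719694-154720357: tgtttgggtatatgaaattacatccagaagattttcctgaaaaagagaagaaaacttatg

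Upstream sequence was matched by gene symbol for 62 of the 72 members from RefSeq (build GRCr8). The 250 bases before the start are printed for the 3 members with the highest averaged ratio, on the strand of the gene, with every match to the motifs named below in capitals. Cox5b held 1 ETS-family motif, 14 bases before the start. Ndufa11 held 2 overlapping copies of the motif of nuclear respiratory factor 1. Cycs held 1 ACGTG on the reverse strand, 73 bases before the start, with 2 CCAAT boxes and 2 matches to GCGTG.
Cox5b, chr9:46417587-46417836, plus strand: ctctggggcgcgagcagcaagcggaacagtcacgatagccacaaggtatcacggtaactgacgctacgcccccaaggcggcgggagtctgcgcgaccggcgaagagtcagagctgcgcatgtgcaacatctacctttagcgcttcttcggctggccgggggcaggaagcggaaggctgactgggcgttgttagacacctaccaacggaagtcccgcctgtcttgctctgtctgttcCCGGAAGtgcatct
Ndufa11, chr9:1637364-1637613, plus strand: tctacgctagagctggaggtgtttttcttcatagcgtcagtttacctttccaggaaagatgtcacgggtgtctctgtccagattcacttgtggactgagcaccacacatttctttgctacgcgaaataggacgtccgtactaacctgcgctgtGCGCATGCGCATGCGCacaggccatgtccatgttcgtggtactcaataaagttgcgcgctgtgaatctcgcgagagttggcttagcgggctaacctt
Cycs, chr4:80984768-80985017, minus strand: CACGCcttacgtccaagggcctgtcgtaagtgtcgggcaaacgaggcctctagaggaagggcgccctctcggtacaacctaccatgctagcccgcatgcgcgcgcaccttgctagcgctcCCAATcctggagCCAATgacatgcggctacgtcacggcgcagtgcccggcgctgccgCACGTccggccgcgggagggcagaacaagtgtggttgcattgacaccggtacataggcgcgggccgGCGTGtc

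Motifs were searched on both strands of these 250 bases, with 8 spellings in all. The motif of nuclear respiratory factor 1, which is 10 letters long with 1 of them open to any base, was found in 11 of 62 members (17.7%) against 3.75% of all 33469 promoters and 5.07% of the 21851 promoters of protein-coding genes. Its form with the open base fixed, as in the capitals of Ndufa11, was found in 4 members (6.45%, against 0.762% of all promoters). CCGGAAG, bound by ETS-family factors such as nuclear respiratory factor 2, was found in 18 members (29%) against 7.27% of all and 9.01% of protein-coding promoters. ACGTG, part of the hypoxia response element, was found in 17 members (27.4%, against 16.6% and 17.2%), its form GCGTG in 27 (43.5%, against 25.9% and 30.6%) and CCAAT in 22 (35.5%, against 34% and 35%). The YY1 motif AAGATGGCG was found in 1 member (1.61%, against 0.693% of all) and the wider AANATGGCG in 2 (3.23%, against 1.38%). The window mattered for these: in the full 300 bases of the table, which run past the start, AAGATGGCG was found in 9 members (14.5%, against 1.73%) and AANATGGCG in 13 (21%, against 3.01%), while the motif of nuclear respiratory factor 1 was found in 14 (22.6%, against 4.25%). Of the 19 matched members called higher in the averaged ratio below, 5 held the motif of nuclear respiratory factor 1 and 5 held ACGTG, and of the 38 not called 5 and 10 did. These shares are descriptions; the comparison sets were not matched for base composition, and short motifs overlap one another.

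Averaged over both pretreatments and all durations, so that a dye bias shared by both slides cancels, 24 of the 70 tested members were higher in hypoxia and 4 were lower. Over all genes tested, 15.7% were called higher and 16.3% lower, 31.9% in all. The changes were small: the members' median was 0.09 against a median of -0.00 over all genes, and the highest was 0.47. Cytochrome c and some accessory or small subunits of complexes I and IV stood at the upper end. The 4 called lower included Ndufc2, an accessory subunit of complex I and the lowest of all members, and Cox5a of complex IV. Ndufs1 of complex I and Atp5a1 of ATP synthase were also at the lower end, without being called.

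**Figure D1:**
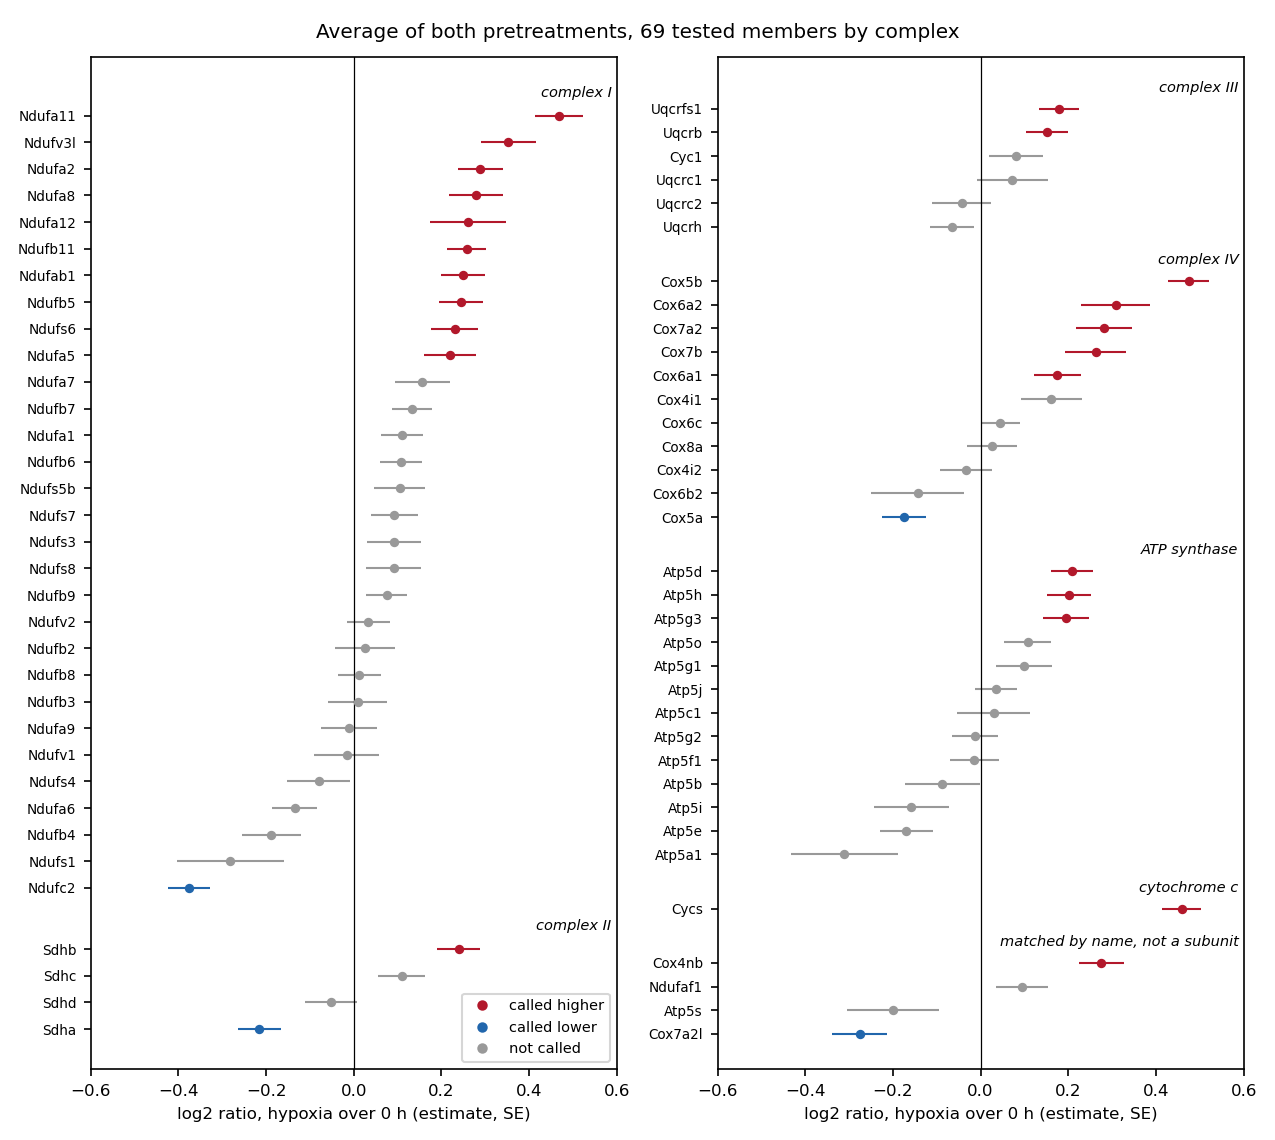
Log2 ratio of hypoxia over 0 h averaged over both pretreatments for 69 of the 70 tested members (points, limma estimates; bars, SE; n = 8 arrays), grouped by complex and coloured by the call over all genes. Called members run from Ndufc2 at -0.38 to Cox5b and Ndufa11 at 0.47, and 23 of the points shown are coloured as higher and 4 as lower.

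Leaving out 1 array at a time, between 21 and 29 members were called in the average. The fewest came without the cobalt 24 h array (18 higher and 3 lower), when 22.8% of all genes were called, against 31.9% with all arrays. Leaving out both the saline 12 h and the saline 48 h array, on which genes of heart muscle stood high (below), gave 15 higher and 4 lower, when 21.4% of all genes were called.

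Values on single arrays are given after loess; with median centring alone the members' median rose to 1.12 or more on the saline arrays and fell to -0.91 or less on the cobalt arrays, so the sign of a value within 1 pretreatment depends on this step. Cycs, which carries electrons from complex III to complex IV, had one of the most even rises. Its ratio was 0.47, 0.48, 0.60 and 0.44 on the saline arrays at 6, 12, 24 and 48 h and 0.50, 0.35, 0.44 and 0.39 on the cobalt arrays. All 8 values were above 0 and those of the pretreatments overlapped. The average was 0.46 ± 0.05 (SE, n = 8 arrays, 1.37-fold, adjusted p = 0.00018), and the other 2 probes of the gene gave 0.35 and 0.43.

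In complex I, the entry point for electrons from NADH, 11 of 31 members rose and 1 fell, with a median of 0.10. Of its 24 accessory subunits, which surround the catalytic core, 10 rose and 1 fell (median 0.12). In complex I 38.7% were called, against 31.9% of all genes (15.7% higher and 16.3% lower). Ndufa11, an accessory subunit of the membrane arm, gave 0.55, 0.62, 0.55 and 0.78 in saline and 0.13, 0.30, 0.41 and 0.40 in cobalt, with every saline array above every cobalt array. Its average was 0.47 ± 0.06 (1.38-fold, adjusted p = 0.0004).

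Ndufv3l, the array's name for the small NADH-module subunit Ndufv3, was at 0.35 ± 0.06 (adjusted p = 0.003), and was above 0 on all arrays, from 0.05 to 0.64. Ndufa2, an accessory subunit near the NADH-oxidizing arm, was at 0.29 ± 0.05 (adjusted p = 0.003), with 2 probes at 0.29 and 0.22, and between 0.44 and 0.59 in saline but only -0.03 to 0.26 in cobalt. Ndufa8 was at 0.28 ± 0.06 (adjusted p = 0.0075), with saline and cobalt arrays overlapping between 0.03 and 0.47. Other members called higher were Ndufa12, Ndufb11, Ndufab1, Ndufb5, Ndufs6 and Ndufa5, at 0.22 to 0.26. The call of Ndufa12 ended when any 1 of 6 arrays was left out, where its ratio ranged from 0.21 to 0.29.

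Ndufc2, a membrane-arm subunit, fell on all 8 arrays, with -0.38, -0.48, -0.56 and -0.40 in saline and -0.42, -0.33, -0.18 and -0.27 in cobalt. The average was -0.38 ± 0.05 (adjusted p = 0.0006). The gene's second probe, printed above, disagreed: it averaged 0.00, from 0.22 in saline and -0.22 in cobalt, and the mean of both probes was -0.19. Which transcripts either probe detects was not tested. In the remaining 19 complex I members, estimates ran from -0.28 for Ndufs1 to 0.16 for Ndufa7 and none was called.

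Complex II, succinate dehydrogenase, which also belongs to the citric acid cycle, is the smallest complex and its 4 genes went apart. Sdhb, the iron-sulfur subunit, gave 0.30, 0.23, 0.16 and 0.33 in saline and 0.18, 0.08, 0.32 and 0.31 in cobalt, all above 0 and overlapping, with an average of 0.24 ± 0.05 (adjusted p = 0.0058). Sdha, the flavoprotein that oxidizes succinate, gave -0.08, -0.01, 0.11 and 0.19 in saline and -0.42, -0.52, -0.53 and -0.47 in cobalt. The cobalt arrays all lay below the saline ones, and the average was -0.22 ± 0.05 (adjusted p = 0.0087). The membrane anchors Sdhc, at 0.11 ± 0.05 (adjusted p = 0.15), and Sdhd, at -0.05 ± 0.06 (adjusted p = 0.54), were not called.

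In complex III, which hands electrons from ubiquinol to cytochrome c, 2 of 6 members rose. The share called was 33.3%, against 31.9% of all genes (15.7% higher and 16.3% lower). Uqcrfs1, the Rieske iron-sulfur protein, averaged 0.18 ± 0.05 (adjusted p = 0.015), and its call ended when arrays were only median-centred (0.16) or scaled to each other (0.13). Uqcrb, a small subunit at the ubiquinone site, averaged 0.15 ± 0.05 (adjusted p = 0.038), while its other probes gave 0.16 and 0.02. The haem-bearing Cyc1 had 0.08 ± 0.06 (adjusted p = 0.35), with saline values of 0.36, -0.07, 0.21 and 0.42 and cobalt values of -0.07, -0.11, -0.12 and 0.03, and it turned to -0.06 with median centring. Cycs and Cyc1 therefore did not share a call, though their difference was not tested.

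In complex IV, cytochrome c oxidase, 5 of 11 tested members rose and 1 fell, with a median of 0.16. The share called was 54.5%, against 31.9% of all genes (15.7% higher and 16.3% lower). Cox5b, a nuclear-encoded structural subunit, gave 0.75, 0.93, 0.72 and 0.71 in saline and 0.12, 0.21, 0.25 and 0.11 in cobalt. All were above 0 and the saline arrays lay well above the cobalt arrays. The average was 0.47 ± 0.05 (1.39-fold, adjusted p = 0.00019), and the gene's other probe gave 0.23, from 0.28 in saline and 0.18 in cobalt, so the size differed between probes. Cox7a2, a small membrane subunit, rose by 0.28 ± 0.06 (adjusted p = 0.0085), and Cox7b rose by 0.26 ± 0.07 (adjusted p = 0.019), a call that ended without the cobalt 24 h array (0.24). Cox5a, another subunit of complex IV, was lower on all 8 arrays, between -0.33 and -0.01. Its average of -0.17 ± 0.05 passed (adjusted p = 0.025), but the call ended when any 1 of 5 arrays was left out and with median centring (-0.14).

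Complex IV has isoform pairs in which one form is general and the other belongs to certain tissues. Cox4i1, the general form of subunit 4, had 0.16 ± 0.07 (adjusted p = 0.10). Cox4i2, the form known from lung and linked to hypoxia, gave -0.39, -0.25, -0.30 and -0.55 in saline and 0.13, 0.51, 0.40 and 0.19 in cobalt, without overlap, and averaged -0.03 ± 0.06 (adjusted p = 0.71). With median centring these directions turned, to 0.47 in saline and -0.71 in cobalt. Cox6a2, the heart and skeletal muscle form of subunit 6a, rose by 0.31 ± 0.08 (adjusted p = 0.016), with 0.13, 0.40, 0.17 and 0.19 in saline and 0.77, 0.18, 0.50 and 0.12 in cobalt. It was above 0 on every array and highest on cobalt 6 h. On that array the heart genes listed below had a median of 0.06, while their summed signal was 7276 against 3993 at 0 h, a log2 ratio of 0.87; their part was not tested. The general form Cox6a1 was called at 0.17 ± 0.05 (adjusted p = 0.033), but its red signal was saturated on all 8 arrays, so that its ratios are not measured sizes: they are lower bounds where hypoxia RNA was in red (saline) and upper bounds where it was in green (cobalt). Cox6b2, the testis form of subunit 6b, had -0.14 ± 0.11 (adjusted p = 0.33), and its general partner was too dim. No probe bore the name Cox7a1, Ndufa4 or Ndufa4l2, so no partner could be set beside Cox7a2.

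In ATP synthase, 3 of 13 members rose and none fell, with a median of 0.03. The share called was 23.1%, against 31.9% of all genes (15.7% higher and 16.3% lower). The risers were Atp5d, a subunit of the rotor's central stalk, at 0.21 ± 0.05 (adjusted p = 0.0087), Atp5h, of the peripheral stalk, at 0.20 ± 0.05 (adjusted p = 0.014), and Atp5g3, 1 of 3 genes for the proton-carrying c ring, at 0.19 ± 0.05 (adjusted p = 0.018). Atp5d was above 0 on all arrays, from 0.09 to 0.29. The other c ring genes Atp5g1 and Atp5g2 had 0.10 and -0.01 and were not called, and the second probe of Atp5g2 gave 0.14. Atp5a1, which encodes the alpha subunit of the catalytic head, had the lowest estimate, -0.31 ± 0.12 (adjusted p = 0.079). It was called with duration as a factor (adjusted p = 0.0094). The red signal of Atp5e, a small subunit of the central stalk, was saturated on 6 arrays and that of Atp5i, of the membrane part, on 1.

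Among the names that are no subunits, Cox4nb rose by 0.28 ± 0.05 (adjusted p = 0.0035) and Cox7a2l fell, at -0.28 ± 0.06 (adjusted p = 0.009). Without these 5 names, 23 of 66 tested subunits rose and 3 fell (background 15.7% higher and 16.3% lower).

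Taken by pretreatment, 28 of 70 members were higher and 3 lower in saline (background 21.8% higher and 18.3% lower, 40.1% in all), and 8 were higher and 4 lower in cobalt (background 8.54% and 12.3%, 20.8% in all). The medians were 0.17 and 0.03. These values do not hold up against the choice of normalization. Loess removes a dye bias that depends on brightness. With each array only centred on its median, the members' median moved to 1.19 in saline (66 higher, 0 lower) and to -1.01 in cobalt (0 higher, 69 lower). The shift was not limited to the members: under this setting 59.1% of all genes were called in saline and 80.4% in cobalt, with medians over all genes of 0.28 and -0.49. Without dye correction by brightness nearly every member thus stood higher in the red channel, whichever RNA was in it. The average of both pretreatments moved little, from 0.09 to 0.08, with 20 higher and 6 lower, when 47.3% of all genes were called.

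**Figure D2:**
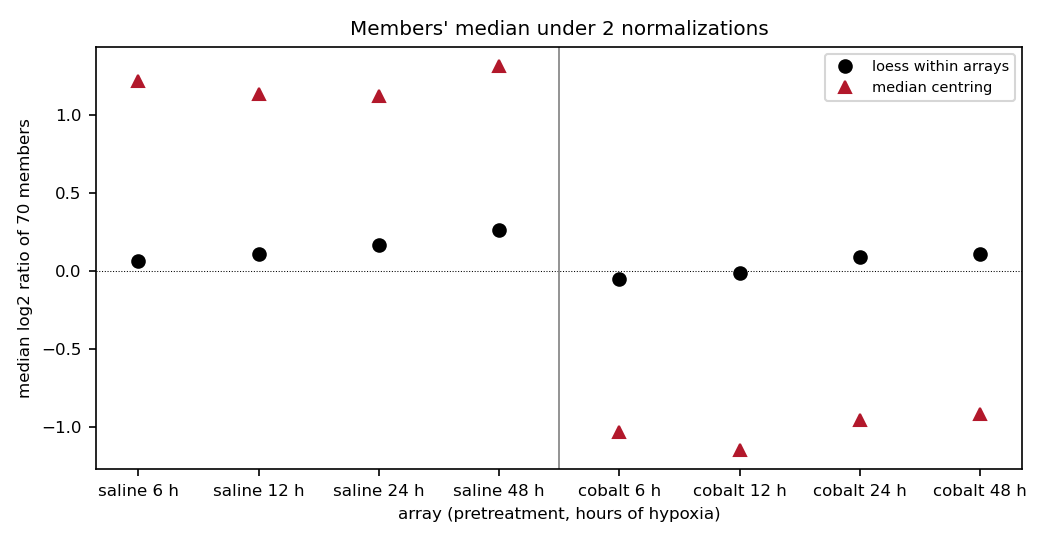
Median log2 ratio of the 70 tested members on each of the 8 arrays, after loess within arrays (circles) and after median centring alone (triangles). After loess the medians lie between -0.05 and 0.26; with median centring they lie between 1.12 and 1.31 on the saline arrays and between -1.15 and -0.91 on the cobalt arrays.

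In the cobalt group the count also rested on single arrays: leaving out 1 cobalt array left 5 (without 24 h), 6 (without 12 h) or 7 (without 6 h or 48 h) called members, leaving out the saline 24 h array left 8, and scaling between arrays gave 13 higher and 8 lower. The share called over all genes moved along, from 20.8% to 9.39% without cobalt 24 h, 10.2% without 12 h, 12.6% without 6 h, 13.8% without 48 h, 18.5% without saline 24 h and 30.7% with scaling. In saline, leaving out both the 12 h and 48 h arrays left 15 higher and 2 lower, when 19.9% of all genes were called.

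After loess, the cobalt response was below the saline response in 16 of 70 members and above it in 4 (background 17.4% and 12.7%, 30.1% in all), and the median difference was -0.11. With median centring the difference was negative in all 70 called members, at a median of -2.19, so the direction of the 4 higher ones turned; 78.9% of all genes were then called, at a median of -0.78. The difference was largest in size in Uqcrfs1, with 0.61, 0.41, 0.53 and 0.58 in saline and -0.17, -0.23, -0.16 and -0.14 in cobalt. No array overlapped, and cobalt minus saline was -0.71 ± 0.09 (adjusted p = 0.00065). Ndufb11, an accessory subunit of the membrane arm of complex I, gave 0.62, 0.65, 0.60 and 0.58 in saline and -0.17, -0.17, -0.01 and -0.03 in cobalt, a difference of -0.71 ± 0.09 (adjusted p = 0.00063). Ndufa5 and Uqcrh followed at -0.63 each and Cox5b at -0.61 ± 0.09 (adjusted p = 0.0017), and Cox4i2 was the highest in the other direction, at 0.68 ± 0.12 (adjusted p = 0.0031). The other probe of Cox5b gave only -0.10 ± 0.12, and its saline and cobalt arrays overlapped.

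By complex, cobalt minus saline was called lower in 9 and higher in 1 of 31 complex I members, lower in 3 and higher in 1 of 6 of complex III, lower in 1 and higher in 2 of 11 of complex IV, lower in 2 of 13 of ATP synthase and lower in 1 of 4 of complex II. The markers of lung epithelium also differed by pretreatment. In cobalt minus saline, 4 of 10 were called higher and 1 lower (background 12.7% and 17.4%), from -1.74 to 3.21 with a median of 0.56. Summed, which weights bright genes, the 10 had a log2 ratio of -1.03 to -0.62 on the saline arrays and of 0.07 to 0.59 on the cobalt arrays. Sftpc, the surfactant protein C of type II cells, stood at -1.90 to -1.72 in saline and at 0.96 to 1.65 in cobalt. Other cell types were split too. In cobalt minus saline, smooth muscle had 7 of 9 tested genes higher (median 0.62), endothelium 4 of 8 higher (median 0.65) and cardiac muscle 2 of 10 lower (median -1.09). The endothelial genes summed to a log2 ratio of -0.99 to -0.51 on the saline arrays and of -0.04 to 0.30 on the cobalt arrays. The part of these cell types in the members' differences was not tested, and the effects of cobalt, dye orientation, slide and 0 h control cannot be told apart.

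**Figure D3:**
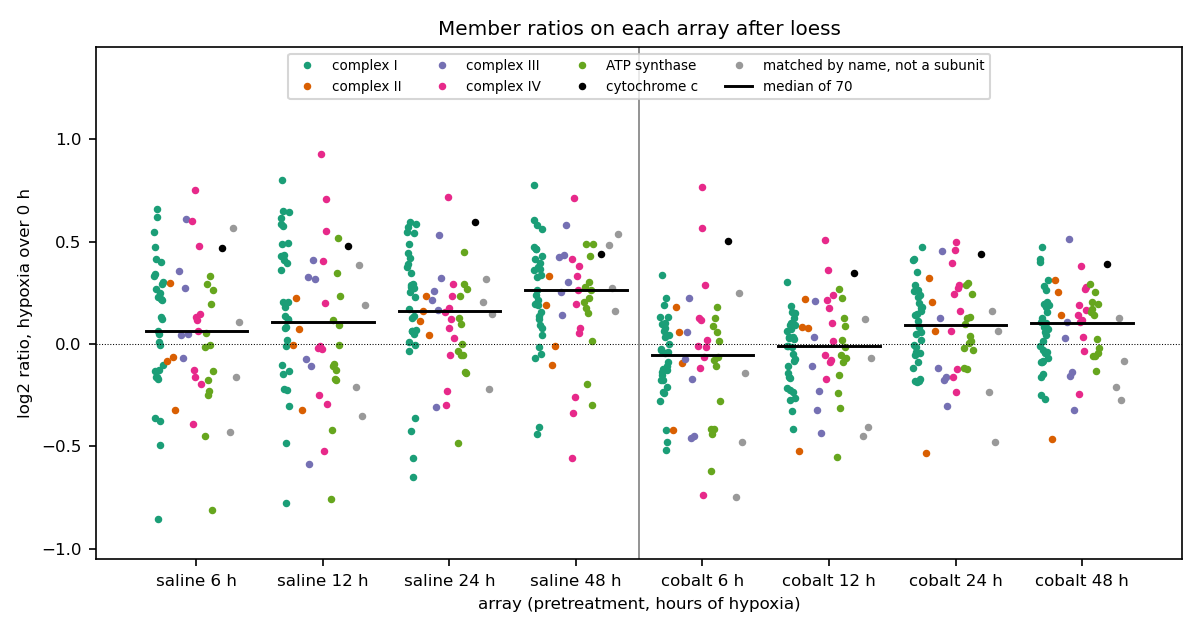
Log2 ratio of each tested member on each array after loess, coloured by complex, with the median of all 70 as a line. Medians are 0.06, 0.11, 0.16 and 0.26 at 6, 12, 24 and 48 h in saline and -0.05, -0.01, 0.09 and 0.10 in cobalt.

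Over the course of exposure the members' median was higher at later times in both pretreatments: 0.06, 0.11, 0.16 and 0.26 at 6, 12, 24 and 48 h in saline, and -0.05, -0.01, 0.09 and 0.10 in cobalt. The mean of 24 and 48 h minus that of 6 and 12 h, in which dye bias and 0 h RNA cancel within each pretreatment, had a median of 0.09 over the members and of -0.01 over all genes. It was above 0 in 57 of 70 members and in 46.7% of all genes. The median lay between 0.07 and 0.12 in all alternatives, including median centring (0.09). No member was called by limma, as 0% of all genes were; at an unadjusted p under 0.05, 8 members were higher late and 0 lower, against 1558 genes higher and 1550 lower among all tested.

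The members with the lowest p in this contrast, none of them called, were Atp5s, Atp5a1 and Atp5c1. Atp5a1, the alpha subunit of ATP synthase, gave -0.45, -0.76, -0.49 and 0.21 in saline and -0.62, -0.55, -0.12 and 0.29 in cobalt. It was lowest early and above 0 at 48 h in both, with a late minus early value of 0.57 ± 0.18 (limma, adjusted p = 0.32). Atp5c1, the gamma subunit of the central stalk, gave 0.05, -0.11, 0.13 and 0.49 in saline and -0.44, -0.15, 0.10 and 0.17 in cobalt, a value of 0.38 ± 0.12 (adjusted p = 0.32). Atp5s had 0.52 ± 0.13 (adjusted p = 0.31), with -0.43, -0.21, 0.21 and 0.49 in saline and -0.75, -0.45, -0.23 and -0.21 in cobalt.

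Ndufs1 and Atp5b, chosen after their values were seen, had the same shape. Ndufs1, the largest core subunit of complex I, gave -0.49, -0.78, -0.65 and 0.14 in saline and -0.52, -0.42, 0.20 and 0.26 in cobalt (0.54 ± 0.18, adjusted p = 0.32). Atp5b, the catalytic beta subunit, gave -0.01, -0.42, -0.03 and 0.28 in saline and -0.41, -0.24, -0.02 and 0.16 in cobalt (0.37 ± 0.13, adjusted p = 0.33). In both genes the 48 h value was the highest of its pretreatment. The difference of this contrast between pretreatments was called by limma in no member (smallest adjusted p = 0.92), as 0% of all genes were. At an unadjusted p under 0.05, 1 member was higher and 0 lower, against 582 genes higher and 731 lower among all tested. As cobalt minus saline, Cox7a2 had a log2 estimate of 0.45, Ndufs5b of 0.40 and Ndufa2 of 0.27, the members with the lowest p.

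**Figure D4:**
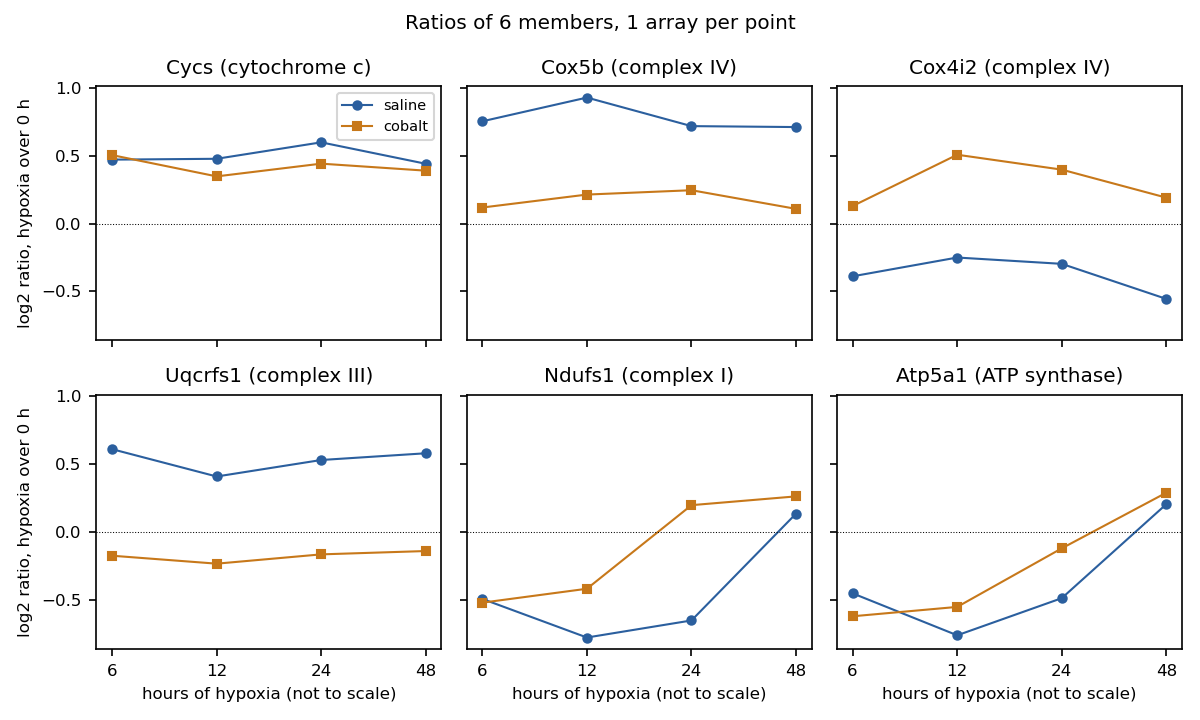
Log2 ratio of hypoxia over 0 h after loess for 6 members at 6, 12, 24 and 48 h, with saline as circles and cobalt as squares; each point is 1 array and the time axis is not to scale. Cycs lies between 0.35 and 0.60 on all arrays, Cox5b, Cox4i2 and Uqcrfs1 are split by pretreatment at every time, and Ndufs1 and Atp5a1 are below 0 at 6 and 12 h and above 0 at 48 h in both. The other probe of Cox5b, not shown, overlapped between pretreatments.

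At single durations, each with 1 array per pretreatment, 4 members were called at 6 h: Cycs at 0.49 ± 0.09 and Cox5b at 0.44 ± 0.10 were higher, and Atp5a1 at -0.53 ± 0.12 and Atp5s at -0.59 ± 0.12 lower (background 4.1% higher and 3.66% lower, 7.75% in all). At 12 h, Cox5b at 0.57 ± 0.10 was higher and Atp5a1 at -0.65 ± 0.12 lower (background 1.87% higher and 1.98% lower, 3.85% in all). At 24 h and at 48 h no member was called by limma (background 0.766% higher and 0.613% lower, 1.38% in all, at 24 h, and 0.779% and 0.725%, 1.5% in all, at 48 h). At an unadjusted p under 0.05, 14 members were higher and 3 lower at 24 h, against 2003 and 2324 of the 24141 genes. At 48 h, 17 members were higher and 2 lower, against 2457 and 2585 genes. The members with the lowest p had log2 estimates of 0.52 (Cycs), 0.53 (Ndufv3l) and 0.48 (Cox5b) at 24 h and of 0.59 (Ndufa11), 0.47 (Ndufa8) and 0.51 (Ndufa12) at 48 h. All 4 calls at 6 h ended without any 1 of 6 arrays (both 6 h, both 24 h and both 48 h arrays), both calls at 12 h ended without any 1 of the 12, 24 or 48 h arrays, and none was left with scaling between arrays. Leaving out a 24 h or 48 h array could not move the 6 h estimates, which in this fit are the means of the saline and cobalt 6 h ratios. Only their error could change: Atp5a1 stayed at -0.53, with an adjusted p of 0.055 to 0.099 by limma. The genes called at 6 h among all tested fell from 1872 to between 743 and 1287.

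Genes of heart muscle, a tissue rich in respiratory chain, were read beside the members. Of 14 markers 10 were tested, 3 rose in the average and none fell (background 15.7% higher and 16.3% lower), with a median of 0.64. On the saline 12 h and 48 h arrays their medians were 1.24 and 2.50, against -0.06 to 0.15 on the other 6. The atrial myosin light chain Myl7 stood at 3.27 and 3.93 there and at -0.26 to 0.22 elsewhere, and the myosin heavy chain Myh6 at 2.85 and 3.73 against -0.20 to 0.23. The summed signal of the 10 genes on the saline 48 h array was 29316 against 6395 at 0 h, and on the other 7 arrays its log2 ratio over 0 h was 0.28 to 1.83, highest on cobalt 48 h. No marker was without signal on all arrays. Cox6a2 stood at 0.40 and 0.19 on the saline 12 h and 48 h arrays. Without them, Cox5b averaged 0.45, Cycs 0.48 and Ndufa11 0.43, all still called, whereas the calls of Cox6a2 (0.27), Ndufa12 (0.17), Cox7b (0.18), Cox5a (-0.18) and Cox6a1 ended, and the late minus early median was 0.08.

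Markers of other cells also moved in the average (background 15.7% higher and 16.3% lower over all genes). Smooth muscle had 8 of 9 tested genes higher (median 1.33), led by desmin, Des, at 2.02 ± 0.08. Lung epithelium had 4 of 10 lower and none higher (median -0.18), among them Aqp5, the water channel of type I cells, at -0.85 ± 0.19, and endothelium 3 of 8 lower and none higher (median -0.23), among them the receptor Tek at -0.52 ± 0.06. Skeletal muscle had 2 of 8 higher and 2 lower, fat 2 of 5 higher, and alveolar macrophages 1 of 5 higher and 1 lower. Erythroid cells had 0 of 5 in either direction by limma (0 at an unadjusted p under 0.05). Erythroid genes were not steady between arrays, with medians from -1.16 on saline 48 h to 2.23 on cobalt 48 h. Their late minus early estimate was above 0 in 5 of 5 (median 1.01), with 0 called, as 0% of all genes were. The part of these cell types in the members' ratios was not tested.

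Other mitochondrial gene lists were set beside the members in the averaged ratio, each without the members themselves. Over all genes tested, 15.7% were called higher and 16.3% lower in this ratio. Mitochondrial ribosomal proteins, which translate the subunits encoded in mitochondrial DNA, had 22 of 64 tested genes higher and 3 lower (median 0.12), led by Mrpl54 at 0.49 ± 0.06, Mrpl24 at 0.55 ± 0.06 and Mrpl12 at 0.35 ± 0.05. The protein import machinery had 8 of 18 higher and 1 lower (median 0.13), with the small translocase chaperones Timm10 at 0.62 ± 0.06 and Timm8a1 at 0.72 ± 0.07 and the matrix chaperone Hspa9 at 0.42 ± 0.05. The list of inner membrane carriers and uncouplers, which also held the ATP synthase inhibitor Atpif1, had 5 of 17 higher and 1 lower. These included the ADP/ATP carriers Slc25a5 at 0.25 ± 0.05 and Slc25a6 at 0.29 ± 0.05, and Atpif1 at 0.30 ± 0.05. Mitochondrial antioxidants had 4 of 7 higher and none lower (median 0.18), with the superoxide dismutase Sod2 at 0.63 ± 0.10 and the glutaredoxin Glrx2 at 0.44 ± 0.06.

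The citric acid cycle had 1 of 17 higher (Idh3a, 0.17 ± 0.05) and 1 lower (Idh2, -0.30 ± 0.09), and assembly factors outside the name rule had none of 20 higher and 3 lower, Cox15 (-0.16 ± 0.05), Taco1 (-0.11 ± 0.03) and Foxred1 (-0.16 ± 0.05). The 15% of assembly factors called lower was near the 16.3% over all genes. Both shares of the citric acid cycle (5.88% each) were under those over all genes (15.7% higher and 16.3% lower). Regulators of mitochondrial biogenesis had 1 of 17 higher, the coactivator Pprc1 at 0.61 ± 0.08, and 2 lower, Nfe2l2 at -0.19 ± 0.06 and Gabpb1, a subunit of nuclear respiratory factor 2, at -0.25 ± 0.08. Mitochondrial genes linked to hypoxia-inducible factors had 3 of 11 higher and 3 lower: the mitophagy receptor Bnip3 was at 1.37 ± 0.12 and Higd1a, a partner of complex IV, at 0.58 ± 0.08, while the mitophagy genes Fundc1 and Bnip3l were at -0.32 ± 0.08 and -0.26 ± 0.07.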

How the data were processed

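Lung RNA was measured on 8 two-colour arrays, 1 per group. Per the file headers, the deposited scanner files were made with Feature Extraction 9.5.1.1 and hold signals as intensity in scanner units, with a log10 ratio of the red to the green channel beside them. Set against these ratios, the deposited series matrix was on a log2 scale, ran as hypoxia over 0 h and was centred on a median of 0 per array. Probe positions are those of the design (rn3).

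In limma 3.58.1, with R 4.3.3, mean signals went through normexp with an offset of 50 and then loess on each array. Outlier spots were dropped, saturated ones kept, and spots averaged per probe. Of 41012 probes, 28419 passed the filter (a channel well above background on 4 or more arrays, no missing value), and each of 24141 genes was represented by its brightest probe. Signal stood well above background in green for 57.7% to 67.2% of spots per array and in red for 63.5% to 72.7%. The number of arrays limits the precision. Names came from RefSeq GRCr8 by accession (10735 probes), symbol (5577) or synonym (3730), and otherwise from the file. A name Cox8h, which RefSeq lists as Cox8b, was left out with it.

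Fits used a variance trend over mean intensity: pretreatment means, late against early durations within each pretreatment, and the mean of both pretreatments at each duration. The script was tested on simulated data. Members named in the text are the 10 highest and 10 lowest called in the average, the 3 lowest p in the other contrasts, complex II, isoform pairs, and up to 4 lowest-p genes of other lists; Uqcrb, Atp5d, Atp5h and Atp5g3 were added as called members of their complex, and Ndufs1, Atp5b, Myl7, Myh6 and Sftpc after their values were seen. The values of 1 member are not reported here. The members and lists were chosen with earlier results of these data known. Motifs were looked at in 2 windows before any was chosen.

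Alternative settings comprised the scanner software's own ratio, the series matrix, no background subtraction, median centring, scaling between arrays, no filter, outlier spots kept, a strict filter, all probes of a gene averaged, no variance trend, duration as a factor, leaving out each array, and, added after the data were seen, leaving out both the saline 12 h and saline 48 h arrays.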

Additional observations from a re-analysis of the deposited data

Results flagged for a closer look

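The difference of the cobalt response from the saline response was called in 20 of 70 tested members (28.6%). Among all genes tested, 30.1% were called. Each difference is given as cobalt minus saline on the log2 scale. It was below 0 for Uqcrfs1 (-0.71), Ndufb11 (-0.71), Ndufa5 (-0.63), Uqcrh (-0.63), Cox5b (-0.61), Ndufab1 (-0.56), Sdha (-0.54), Ndufa1 (-0.53), Ndufa7 (-0.48), Uqcrc2 (-0.47), Ndufs6 (-0.42), Ndufb3 (-0.42), Ndufa2 (-0.41), Atp5o (-0.41), Atp5g3 (-0.39) and Ndufs8 (-0.38). It was above 0 for Cox6a1 (0.53), Uqcrc1 (0.56), Ndufb4 (0.60) and Cox4i2 (0.68). Dye orientation, slide and 0 h RNA differ along with the pretreatment and cannot be told apart from it, and the value of Cox6a1 rests on saturated signals. The other probe of Cox5b gave only -0.10. With median centring all 20 were below 0.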

How the results depend on the processing

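The average of both pretreatments kept its count within 1.5 times under every alternative. The count ran from 19 called members with both the saline 12 h and 48 h arrays left out (all genes 21.4%) to 30 with no variance trend (31.5%). The members' median stayed between 0.05 and 0.10. Duration as a factor, the replicate block that pairs saline and cobalt arrays of a duration, gave 22 higher and 7 lower members (all genes 31.8%). The labels do not say that these arrays share animals. Leaving out 1 array gave 21 to 29 called members in the average, when 22.8% to 31.2% of all genes were called. The saline response had 25 to 30 (all genes 31.3% to 39.6%) and the cobalt response 5 to 13 (9.39% to 23.2%). The cobalt response minus saline response had 16 to 20 (21.5% to 30.1%). How the calls at 6 h and 12 h changed without single arrays is given above. Median centring gave 66 called members in the saline response (all genes 59.1%) and 69 in the cobalt response (80.4%). It gave 70 in their difference (78.9%) and 6 at 12 h (20%). Scaling between arrays gave 21 in the cobalt response (all genes 30.7%), 0 at 6 h (3.98%), 0 at 12 h (0.721%) and 4 at 24 h (4.78%). With both saline arrays left out, 17 were called in the saline response (all genes 19.9%) and 0 at 6 h (5.49%). No filter gave 2 at 6 h (all genes 5.01%), the mean over probes 1 at 12 h (3.26%) and no background subtraction 1 at 24 h (1.83%). No variance trend gave 1 each at 24 h and 48 h (1.63% and 1.76%), and so did the strict filter (2.52% and 2.64%).

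Cobalt minus saline turned, when arrays were only median-centred, to -1.18 for Cox4i2, -2.12 for Cox6a1, -1.94 for Ndufb4 and -0.88 for Uqcrc1. The cobalt response turned to -0.71 for Cox4i2, -0.91 for Cox5b and -0.62 for Cycs, and the saline response of Cox4i2 to 0.47. In the average, median centring turned Cyc1 to -0.062 and Atp5c1 (Atp5f1c) to -0.0028, and scaling between arrays turned Cox4i2 to 0.027; the average of Atp5c1 ranged from -0.028 to 0.090 without 1 array. None of these 3 averages was called. The cause was not tested. Dim probes limit Cox6b and Cox6c1, and saturation limits Cox6a1 and Atp5e.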
